A study of Arabidopsis thaliana with 6 samples.

Results

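The GROWTH-REGULATING FACTOR (GRF) genes and their coactivator gene GIF1 were followed in inflorescence meristems of Arabidopsis thaliana, across 6 RNA-seq libraries. The members were chosen by locus, GRF1 to GRF9 and GIF1 (also called AN3), which makes 10 of the 32833 loci in the count tables. All 10 were present in every table, and all 10 passed the filter on low counts. The series asks how a change of the cell wall in the stem cells affects the whole meristem. All plants carried the dexamethasone-inducible driver GR-LhG4 under the CLV3 promoter (pCLV3), which is active in the stem cells. In the controls this system switched on only the reporter erTurquoise (pCLV3>>erTurquoise, 3 libraries). The second group carried the same reporter and in addition VGD1, a gene for a pectin methylesterase (pCLV3>>erTurquoise, >>VGD1, 3 libraries). Both groups were treated with dexamethasone, so the controls share the inducer and the driver. The labels give its concentration as 30 µM in one field and 30 mM in another, and the time to harvest as 48 hours in one and 72 hours in another. Meristems came from stems 15 cm tall, with the older flower buds removed.

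Totals ranged from 18432365 to 24437872 counts in 5 libraries, and control replicate 3 was shallower, with 6638772 counts. VGD1 itself was not higher in the group that carries it (9.63 ± 4.24 CPM, that is, counts scaled to library size, in controls and 7.21 ± 0.67 CPM in the other group, SD, n = 3 each; edgeR adjusted p = 0.372). The second group is therefore called "the libraries labelled VGD1", and higher or lower always means relative to the controls. Transcripts of STM, a homeobox gene of meristem cells, were found in all 6 libraries (60.3 to 90.5 CPM), whereas CLV3, which marks the stem cells, had 0 counts in all 3 controls and 3, 8 and 11 counts in the others. A count of 0 allows up to 3 counts per library, or 0.124 to 0.45 CPM in the controls (counting error only). Whether replicates were separate plantings is not stated in the labels, and the p-values reflect the spread of the libraries at hand, which may be technical. In whole meristems, fewer cells of a type and less RNA per cell cannot be told apart.

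GRF proteins are plant transcription factors with a QLQ domain, through which they bind GIF coactivators, and a WRC domain, through which they bind DNA. GIF proteins have no DNA-binding domain of their own and link GRFs to SWI/SNF chromatin remodelling complexes. Together they promote cell proliferation in young organs, and the microRNA miR396 limits most GRF transcripts to dividing tissue. TCP4, a transcription factor of organ maturation, is known to activate miR396 genes in leaves.

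The pairing of miR396 with the GRF transcripts divides the family, so these sequences are shown first. Both mature miR396-5p forms, read from the RefSeq annotation of TAIR10.1, share the seed (bases 2 to 8, in capitals) and differ at their 3′ ends. MIR396A lies on chromosome 2 and MIR396B on chromosome 5.
miR396a-5p: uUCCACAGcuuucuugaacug
miR396b-5p: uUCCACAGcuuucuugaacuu
A window complementary to miR396a-5p with at most 3 mismatched or bulged bases was found in 7 of the 9 GRF transcripts. In each of them the match lay within the coding sequence, in 1 exon, with 1 base bulged out of the pairing. Capitals below mark bases that form Watson-Crick pairs with miR396a-5p, and G:U pairs were counted as mismatches.
GRF1 and GRF2: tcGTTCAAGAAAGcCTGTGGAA
GRF3 and GRF4: CcGTTCAAGAAAGcCTGTGGAA
GRF7 and GRF8: tcGTTCAAGAAAGCaTGTGGAA
GRF9: acGTTCAAGAAAGCtTGTGGAA
The match was in exon 3 of GRF1 to GRF4, exon 5 of GRF8 and exon 2 of GRF7 and GRF9. The genes fell into pairs with the same 22 bases, and GRF9 stood alone. GRF5 and GRF6 held no such window: their best windows had 7 and 6 mismatches, and a match of 6 or better occurred in 9.93% of 27562 protein-coding genes. At 3 or fewer the share was 0.0399% (11 genes, 7 of them GRF genes). GIF1, whose best window counted 8 mismatched or bulged bases, held no match either. A match is a description of the sequence only.

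**Figure D1:**
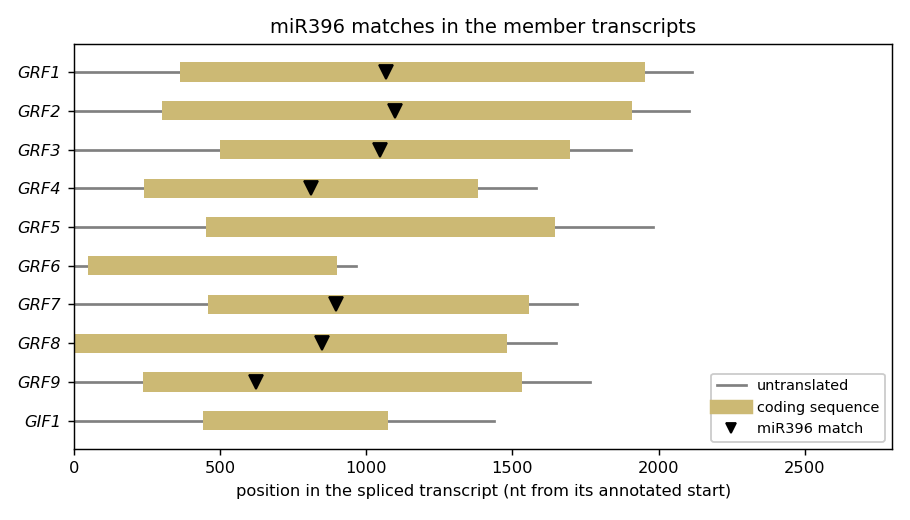
Spliced transcripts of the 10 members, drawn to scale in nucleotides from the annotated start. Boxes are coding sequence, grey lines are untranslated parts and triangles mark the miR396 match. The match lies inside the coding sequence of 7 GRF genes, and GRF5, GRF6 and GIF1 have none.

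No member changed between the groups at an adjusted p of 0.05, although 9 of the 10 lay above 0 (10 of 10 when scaled by library totals alone, which put GRF7 at 0.0175 and moved the median of all genes to 0.03). Across 19719 tested genes, 82 were called (0.416% in either direction, and 0.101% higher), against 0 of the 10 members. At an unadjusted p under 0.05, 4 members were higher and 0 lower in edgeR's quasi-likelihood test, while 5.21% of all tested genes were higher and 8.36% lower. DESeq2 called 0 members too, where 0.677% of its genes were called higher, and limma-voom called 0, where 0.0964% were. The median log2 fold change of the members was 0.31, where that of all tested genes was -4e-04 and 49.9% of genes lay above 0. Values ran from -0.02 (GRF7) to 0.55 (GRF5).

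GIF1 (AT5G28640), the coactivator, had the highest level of the 10 and separated the groups. Its levels were 164, 144 and 202 CPM in controls 1 to 3 and 212, 217 and 226 CPM in the libraries labelled VGD1. All 3 labelled libraries were above all 3 controls, and the gap above control replicate 3 was small. Group means were 170.0 ± 29.2 and 218 ± 6.92 CPM (SD, n = 3 each). The log2 fold change was 0.37 (SE 0.12, 95% interval 0.11 to 0.63), a 1.29-fold difference that did not pass the test over all genes (edgeR adjusted p = 0.22). Counts of GIF1 were at least 1345 per library. The spread among the controls was wider than among the labelled libraries, with a coefficient of variation of 17.2% against 3.17%.

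GRF5 and GRF6 are the GRF genes without a miR396 match. GRF5 (AT3G13960) promotes cell proliferation in leaf primordia and showed the largest difference of the 10. It stood at 40.1, 35.9 and 57.0 CPM in the controls and at 62.7, 56.7 and 69.1 CPM in the libraries labelled VGD1. The groups overlapped only narrowly, because control replicate 3 lay just above replicate 2 labelled VGD1. Its log2 fold change was 0.55 (SE 0.16, interval 0.19 to 0.91, edgeR adjusted p = 0.195). Without control replicate 3, GRF5 passed the test, with a log2 fold change of 0.73 (edgeR adjusted p = 0.0313), and 0.135% of all tested genes were then called higher. It was the only member called in any of the 15 alternatives, and in the other 14 its adjusted p stayed above the threshold, up to 0.648. GRF6 (AT2G06200) was the least abundant member, at 7.84, 6.21 and 7.80 CPM in the controls and 6.89, 8.54 and 9.27 CPM in the other group. Its ranges overlapped (log2 fold change 0.20, interval -0.22 to 0.63), and control replicate 3 held only 52 counts of it.

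GRF1 to GRF4 act together in leaf and cotyledon growth, and none of the 4 separated the groups. GRF4 (AT3G52910) came nearest, with 27.6, 23.6 and 32.1 CPM in the controls and 28.7, 38.8 and 38.6 CPM in the libraries labelled VGD1. Replicate 1 labelled VGD1 lay within the control range and the other two above it (log2 fold change 0.38, interval 0.04 to 0.72, edgeR adjusted p = 0.305). GRF2 (AT4G37740) had the same shape, at 23.4, 20.9 and 30.4 CPM against 23.6, 32.9 and 35.9 CPM. Its log2 fold change of 0.35 had an interval from -0.06 to 0.76. GRF3 (AT2G36400) read 34.9, 33.7 and 52.0 CPM in the controls, and 41.2, 41.9 and 52.5 CPM in the labelled libraries. Replicates numbered 3 of both groups were its highest libraries and nearly equal (log2 fold change 0.22, interval -0.17 to 0.60). GRF1 (AT2G22840) had its highest value in a control: 40.8, 39.8 and 54.1 CPM against 42.8, 45.8 and 51.3 CPM. Its log2 fold change of 0.09 (interval -0.20 to 0.38) allows a level between 0.869 and 1.30 times that of the controls.

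Among GRF7 to GRF9, GRF8 (AT4G24150) separated the groups. Its controls were close together at 19.1, 17.4 and 20.1 CPM, and the libraries labelled VGD1 reached 28.5, 21.6 and 23.8 CPM. All 3 labelled libraries exceeded the controls, replicate 1 by the most (log2 fold change 0.40, SE 0.13, interval 0.10 to 0.70, edgeR adjusted p = 0.237). GRF9 (AT2G45480), which restrains leaf cell proliferation, stood at 14.5, 14.2 and 18.4 CPM in the controls and 19.5, 20.1 and 15.5 CPM in the other group. Replicate 3 labelled VGD1 fell within the control range (log2 fold change 0.28, interval -0.06 to 0.62). GRF7 (AT5G53660), a repressor of the drought gene DREB2A, was the member nearest to no difference. It stood at 15.4, 13.6 and 19.8 CPM in the controls, and at 17.6, 12.2 and 16.4 CPM in the labelled libraries. Its lowest value was in a labelled library and its highest in a control (log2 fold change -0.02, interval -0.42 to 0.38), and the sign of this value turned in 4 of 15 alternatives. In all, 2 of 10 members, GRF8 and GIF1, had labelled libraries wholly above the controls. The same held for 8.17% of all tested genes. Labelled libraries lay wholly below the controls for 0 members and for 9.02% of tested genes.

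**Figure D2:**
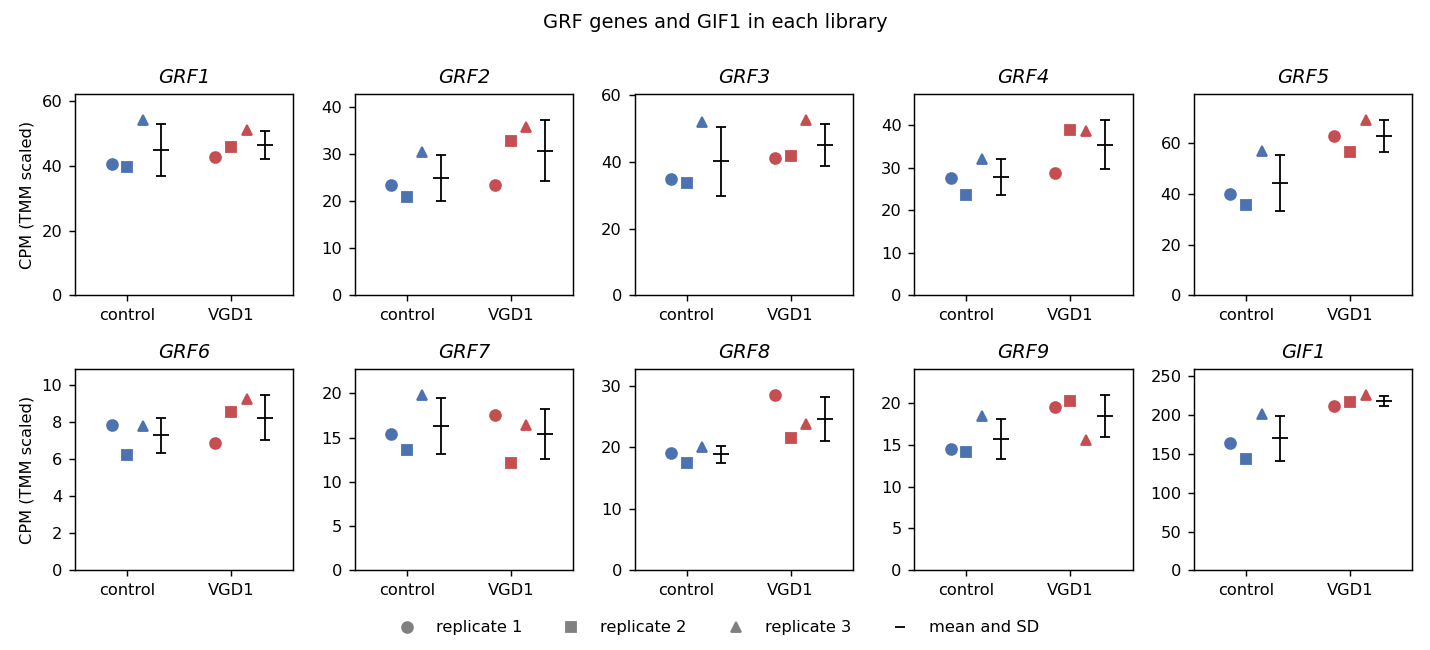
CPM (counts scaled to library size with TMM factors) of each member in the 3 controls (blue) and the 3 libraries labelled VGD1 (red), with marker shape giving the replicate and black bars the mean and SD (n = 3). Each vertical axis starts at 0. GRF8 and GIF1 separate the groups, and GRF5 misses doing so by control replicate 3.

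Annotated genes on the other strand overlap GRF1, GRF3, GRF7 and GRF9, and whether reads were counted by strand is not stated in the sources used here. The overlapping gene of GRF3, SBE2.1 (a starch branching enzyme), was well expressed, at 122 and 104 CPM. AUR3, an Aurora kinase gene beside GRF9, stood at 11.5 and 11.1 CPM. The other overlapping loci were at 0.0514 CPM or less in both groups. Reads of GRF3 and GRF9 are therefore less certain than those of GRF5, GRF8 and GIF1, which overlap no annotated gene on the other strand.

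Per kilobase of exon, GIF1 was the most abundant of the 10 and the GRF genes spread over a narrower range. GIF1 stood at 70.0 ± 12.0 CPM per kb in the controls and 89.9 ± 2.85 CPM per kb in the libraries labelled VGD1 (SD, n = 3 each). GRF5 followed at 22.4 ± 5.64 and 31.7 ± 3.14 CPM per kb. In the controls GIF1 was 3.13 times GRF5, with no overlap. GRF5, GRF1, GRF3 and GRF4 came next, between 22.4 and 17.5 CPM per kb, and each overlapped its neighbour in the order. GRF2 (11.8 ± 2.34 CPM per kb) lay below GRF4 without overlap. GRF7, GRF8 and GRF9 overlapped one another in the controls, at 9.46, 9.13 and 8.06 CPM per kb. GRF6 was lowest in both groups, at 6.67 ± 0.85 and 7.54 ± 1.11 CPM per kb, and did not overlap GRF9 in the controls.

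In the libraries labelled VGD1 the ends of the order were the same and the middle shifted. GRF5 did not overlap GRF3, the next gene (23.7 ± 3.34 CPM per kb), with a ratio of means of 1.34. From 23.7 to 22.1 CPM per kb, GRF3 overlapped GRF4 and GRF4 overlapped GRF1. GRF1 did not overlap GRF2 below it, with a ratio of means of 1.51. GRF8 stood above GRF7 here, but their order in the controls was not settled: GRF7 exceeded GRF8 in 1 of 3 controls, with a ratio of means of 1.04. With the length of a single transcript in place of all annotated exons, GRF8 stood at 13.2 and GRF7 at 9.21 CPM per kb over all 6 libraries. By that single-transcript length, the GIF1 level over all 6 libraries was 134.9 in place of 79.9 CPM per kb, still the highest.

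**Figure D3:**
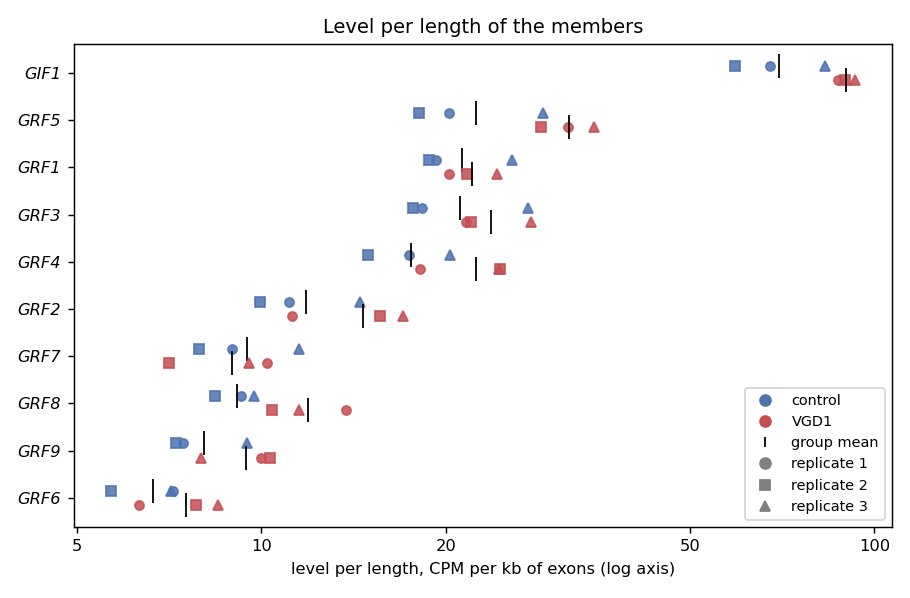
Level of each member in CPM per kb of exons, on a log axis, with the 3 controls in blue, the 3 libraries labelled VGD1 in red, marker shape for the replicate and a black bar for each group mean. GIF1 lies apart at 59.3 to 92.9 CPM per kb, and the 9 GRF genes lie between 5.69 and 34.9.

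Within the control group, most members were low in replicates 1 and 2 and high in replicate 3, whereas in replicates 1 and 2 labelled VGD1 they differed from one another in direction. Relative to their own means over the 6 libraries, the median of the 10 members was -0.19, -0.31 and 0.13 (log2) in control replicates 1, 2 and 3. The same median was 0.06, 0.13 and 0.24 in replicates 1, 2 and 3 labelled VGD1. In labelled replicate 1 the members ran from -0.21 (GRF2) to 0.40 (GRF8), and in labelled replicate 2 from -0.35 (GRF7) to 0.32 (GRF4). Control replicate 2 was the lowest of the 6 libraries for 9 of 10 members, against 13.8% of all tested genes. Control replicate 3 was the highest control for 9 of 10 members, against 37.9% of all tested genes. It exceeded the mean of the other two controls by a median log2 of 0.41 over the members, and by -0.01 over all tested genes. Control replicates 1 and 2 both lay below all 3 labelled libraries for 8 of 10 members (15% of all tested genes). Control replicate 3, the library that overlaps the labelled group, is also the shallowest, and its sums of tissue markers are given below. The part of either in its member values was not tested, beyond thinning all libraries to its total. After thinning, 0 members were called (0.0953% of tested genes were called higher) and their median log2 fold change was 0.31.

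**Figure D4:**
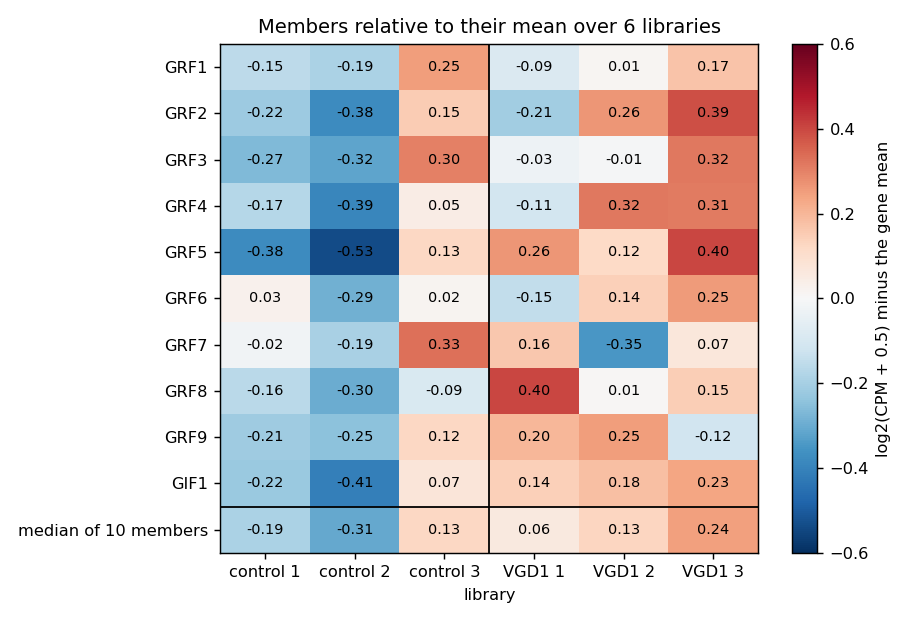
Difference of log2(CPM + 0.5) from each member's mean over the 6 libraries, by library (columns) and member (rows), with the median of the 10 members in the last row. Control replicates 1 and 2 are mostly blue (low), and control replicate 3 sits with the libraries labelled VGD1 in most rows.

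Ratios of 2 members within a library do not depend on scaling, and as a whole they separated the groups about as often as those of other genes. Of all 45 pairs of members, 7 (15.6%) had ratios that did not overlap between the groups, against 17.9% of all pairs of tested genes with a count in every library, so the count is no result about the members. The 2 examples here were picked from the 7 after their values were seen. Counts of GRF5 per count of GRF1 were 0.984, 0.902 and 1.05 in controls 1 to 3 and 1.47, 1.24 and 1.35 in the libraries labelled VGD1. That control replicate 3 lay with the other controls in this ratio follows from picking a pair without overlap. Counts of GIF1 per count of GRF1 were 4.03, 3.62 and 3.73 in the controls, and 4.95, 4.75 and 4.40 in the labelled libraries, again without overlap. These pairs share GRF1, no test is given, and a ratio that differs does not say which of its genes moved.

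Summed per kilobase, the 9 GRF genes stood at 119, 109 and 154 CPM per kb in the controls and 143, 148 and 166 CPM per kb in the labelled libraries. These ranges overlapped through control replicate 3. GRF5 made up 17.0, 16.6 and 18.6% of that sum in the controls and 22.1, 19.3 and 21.0% in the labelled libraries, without overlap. GRF1 made up 16.2, 17.3 and 16.6% against 14.1, 14.6 and 14.6%. GRF7 made up 7.52, 7.28 and 7.46% against 7.14, 4.78 and 5.77%. Shares of 1 sum are not separate results, since a higher share of GRF5 lowers the rest. How often such shares separate the groups in other sets of genes was not computed. The shares of the other GRF genes overlapped. Among them was GRF6, which like GRF5 has no miR396 match, with a mean share of 5.29 ± 0.70% in the controls and 4.94 ± 0.46% in the labelled libraries. GIF1 per summed GRF level was 0.55 ± 0.015 and 0.591 ± 0.026, and these ranges overlapped.

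Partners and regulators of the family did not pass the test either. GIF2 and GIF3, the other GIF coactivator genes, were both above 0 and not called. GIF2 stood at 27.4 ± 2.64 and 30.2 ± 2.51 CPM, and GIF3 at 9.06 ± 0.89 and 10.2 ± 2.25 CPM (SD, n = 3 each; edgeR adjusted p = 0.615 and 0.806). Of 13 SWI/SNF subunit genes, 0 were called in either direction, against 0.416% of all tested genes. Of the 13, 11 lay above 0 (12 with library totals alone), where 49.9% of all tested genes did. Their median log2 fold change was 0.16, and that of all tested genes was -4e-04. MINU1, an ATPase subunit, stood at 62.9, 61.2 and 64.2 CPM in the controls and 69.7, 70.6 and 71.1 CPM in the labelled libraries. All 3 labelled libraries exceeded all 3 controls, at a log2 fold change of only 0.17 (edgeR adjusted p = 0.391). The same held for 4 of the 13 subunit genes, MINU1 included, and for 8.17% of all tested genes. SWP73B and ARP4, further subunits among these 4, had log2 fold changes of 0.18 and 0.16.

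On the miR396 side, 6 of 8 listed genes were tested and 0 were called in either direction, with 3 above and 3 below 0. TCP4 was lower on average, at 25.0, 30.3 and 37.8 CPM in the controls and 25.5, 19.1 and 24.9 CPM in the libraries labelled VGD1. Replicate 1 labelled VGD1 lay inside the control range (log2 fold change -0.38, interval -0.75 to -0.01, edgeR adjusted p = 0.352). TCP24, a relative of TCP4, had a log2 fold change of -0.22 (interval -0.50 to 0.06). The best window of CIB4 (AT1G10120), a bHLH gene that miR396 also targets, had 5 mismatches to miR396a-5p. That is beyond the limit of 3 used for the GRF genes, and 1.82% of protein-coding genes had a match of 5 or better. CIB4 had a log2 fold change of 0.22, and its labelled libraries lay above the controls (48.4 ± 1.41 and 56.3 ± 8.77 CPM). That held for 1 of the 6 tested genes, and for 8.17% of all tested genes. The precursor genes MIR396A and MIR396B were nearly undetected in these poly(A)-selected libraries, with 0 counts in every control and at most 2 counts in any labelled library. Mature miR396 is not measured by them. Of 4 genes bound by GIF1 or a GRF in other work, DREB2A, HEC1 and ARR4 had log2 fold changes of 0.33, -0.58 and 0.16, and 0 of the 4 were called. HEC1 rested on 8 to 22 counts per library (interval -1.77 to 0.62), and leaving out 1 library at a time gave -0.97 to -0.38. For ARR4 the same range was 0.05 to 0.32 (interval over all 6 libraries -0.21 to 0.53). DREB2A, bound by GRF7, stood at 11.1 ± 1.37 and 14.0 ± 1.97 CPM (edgeR adjusted p = 0.421).

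**Figure D5:**
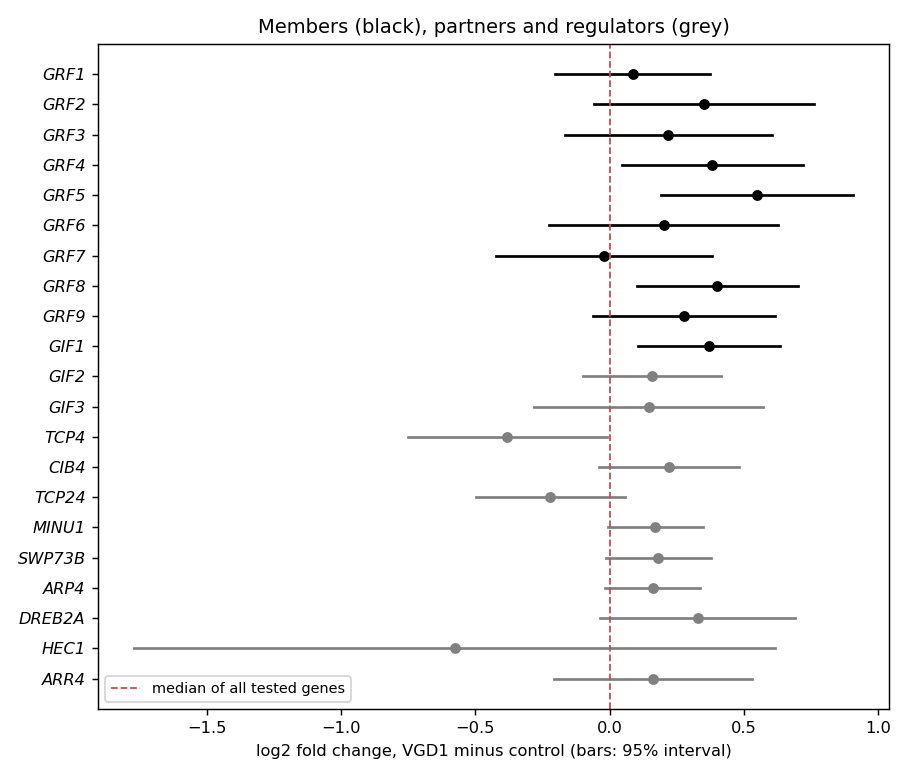
Log2 fold change (libraries labelled VGD1 minus controls) with its 95% interval for the 10 members (black) and 11 partners and regulators (grey). The dashed line is the median of all tested genes. Intervals of GRF4, GRF5, GRF8 and GIF1 lie above 0, that of TCP4 lies below, and none of the 21 genes passed the adjusted threshold.

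Markers of tissues near the meristem differed in their own ways. The 10 genes listed for flower and organ primordia, where GRF genes are active, summed to 882 to 975 CPM in the controls and 789 to 1104 CPM in the labelled libraries, with 0 called. Of these 10 genes, 6 had a log2 fold change above 0 and 4 below it, the lowest being SEP3 at -0.35 and AG at -0.34, which act in floral organ identity. LFY, which specifies flower primordia, was the one of them whose groups did not overlap (21.3 ± 4.19 and 30.5 ± 2.86 CPM, edgeR adjusted p = 0.152). That 1 of 10 is near the 8.17% of all tested genes with labelled libraries wholly above the controls. The 6 meristem genes summed to 209 to 225 and 190.5 to 263 CPM. Of the 5 that were tested, 3 had a log2 fold change above 0 and 2 below it (WUS at -0.35 and KNAT1 at -0.06). Labelled libraries lay wholly above the controls for 2 of the 5, CLV1 and UFO. The 6 tapetum genes of older flowers summed to 259.5 to 341 CPM in the controls and 88.8 to 244 CPM in the labelled libraries, without overlap. Singly, 2 of the 6 lay wholly below the controls, against 9.02% of all tested genes, and TDF1 had a log2 fold change above 0. How often sums of other genes separate the groups was not computed. Sums of the 7 vascular genes did not overlap either, at 213 to 265 and 146 to 198 CPM. Of these 7, all had a log2 fold change below 0 and 5 lay wholly below the controls, while APL and ATHB8 overlapped. Sums of the 6 photosynthesis genes overlapped, at 8784 to 12340 and 8092 to 9886 CPM, through control replicate 3 alone. Controls 1 and 2 were at 11550 and 12340 CPM. All 6 genes had a log2 fold change below 0, as did 9885 of the 19719 tested genes, and 1 of the 6 lay wholly below the controls. Control replicate 3 had the lowest control sum of the meristem, tapetum, vascular and photosynthesis genes (209, 259.5, 213 and 8784 CPM). It had the highest control sum of the primordia genes (975 CPM). No gene of these lists was at 0 in all libraries or passed the adjusted threshold, and the part of these lists in the values of the GRF genes was not tested.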

How the data were processed

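The authors deposited 1 table of whole-number read counts per gene for each of the 6 libraries. Per the file headers, the reads had been aligned by RNA STAR. The submitters' processing notes list TAIR10 and DESeq2, with no version and no role. How reads were assigned to genes, with which annotation and by which strand, was not given in the sources used here. Sample titles supplied the groups and replicate numbers. Counts were fitted with edgeR 4.0.16 in R 4.3.3 (TMM factors, filterByExpr with a minimum count of 10 and total of 15, robust glmQLFit, two-sided quasi-likelihood F test, Benjamini-Hochberg adjustment over 19719 genes, threshold 0.05), and CPM carry the TMM factors. Standard errors come from the fold change and F, and 95% intervals from the fit's degrees of freedom. CPM per kb divide by the union of annotated exons. Symbols, exon lengths, mature miRNAs and transcripts came from RefSeq TAIR10.1, which matched 32548 loci. As its name differs from the build in the notes, no coordinates are given.

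Each transcript with the longest coding sequence was searched for miR396, allowing 1 bulged base. Alternatives were DESeq2 1.42.0, limma-voom (limma 3.58.1), the legacy dispersion of edgeR, scaling by RLE factors or by library totals, keeping all genes with a count or those at 1 CPM in 3 libraries, the replicate block, thinning, and leaving out each library. The fit and the search were tested on simulated data. Named are all members, VGD1, and in each partner list the genes called or else the 3 with the smallest p; markers are given as sums with single examples. STM, CLV3 and LFY are such examples, and ratios of members were added after the values were seen. Members and lists were chosen with earlier results of these data known. No 2 libraries of a group agreed within sampling noise (chi-square per gene 8.58 to 21.8). Across the groups this value ran from 7.445 to 32.0. The lowest of all pairs was control replicate 3 with replicate 3 labelled VGD1. The value depends on depth, and control replicate 3 is the shallowest library.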

Additional observations from a re-analysis of the deposited data

How the results depend on the processing

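The count of 0 called members held in 14 of 15 alternatives and was 1 (GRF5) without control replicate 3. Across the 6 leave-one-out comparisons it therefore ran from 0 to 1, while the count over all genes ran from 4 to 202. Over all genes the 82 calls became 139 without the filter, 419 with DESeq2, 53 with the legacy dispersion, 194 with the replicate block and 51 with thinned libraries. The log2 fold change of GRF5 ran from 0.41 to 0.73 when single libraries were left out, highest without control replicate 3. GRF7 changed sign with library totals alone (0.0175), with limma-voom (0.0098), and when single libraries were left out (-0.14 to 0.14). GIF3 ran from -0.0275 (without replicate 3 labelled VGD1) to 0.29 in those comparisons. The other 8 members stayed above 0 in all 15 alternatives. Library totals alone moved the median of all genes to 0.03. By the length of a single transcript, chosen after seeing the data, GRF8 stood at 13.2 and GIF1 at 134.9 CPM per kb, against 10.5 and 79.9. Whether equal replicate numbers pair the samples was not settled. The correlation of deviations was 0, 0.039 and 0.102 for equal numbers, and -0.086 to 0.057 for unequal ones. Only replicates numbered 3 passed the minimum set, 0.1. The replicate block called 0 members, and GRF5 came nearest (log2 fold change 0.54, edgeR adjusted p = 0.0576). HEC1 gave no value under 2 alternatives. Control replicate 3 held 52 to 380 counts of the GRF genes, which limits the precision of the control group.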
